A study of Mus musculus with 4 samples.

Results

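The genes examined here encode the leukocyte beta 2 integrins and the alpha v integrins, 10 genes chosen by name: the alpha chains Itgal, Itgam, Itgax and Itgad with their partner Itgb2, and Itgav with its partners Itgb1, Itgb3, Itgb5 and Itgb8. They were 10 of 19747 genes named on the array, and 16 probes were assigned to them through the RefSeq accession of each probe. A gene was taken as measured if 1 genotype or both had a probe well above background on each array, which held for 9 of the 10 genes and 15 of the 16 probes. The exception was Itgb8.

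RNA came from lung alveolar macrophages of mice labelled Bach2KO (Bach2-/- in the labelling protocol), which lack the transcription repressor Bach2, and of WT mice, both sorted by flow cytometry. The sources used here do not give strain, age, sex or the sorting gate. Cells were pooled from 4 Bach2KO mice according to the treatment protocol, or 3 according to the series design, and from 8 WT mice. A single RNA sample per genotype was split into 2 parts that were labelled and hybridised to 1-colour Agilent arrays on 1 slide, giving 2 Bach2KO and 2 WT arrays. The arrays of a genotype lay side by side on the slide, so genotype and slide position cannot be told apart. The 2 arrays of a genotype are therefore technical repeats. Differences between the genotypes have no replicate check, no test was possible, and the SD written after ± covers labelling and hybridisation only. All values are log2 signals relative to the 75th percentile of the array unless stated otherwise. Calls of higher and lower follow a rule of size, a difference of 2-fold or more in the same direction in all 4 pairings of Bach2KO with WT arrays. In such bulk RNA, fewer cells of a type and less RNA per cell cannot be told apart.

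Integrins are cell surface receptors made of 1 alpha and 1 beta chain that bind matrix proteins or ligands on other cells and connect them to the actin cytoskeleton. The beta 2 integrins are confined to leukocytes and serve in adhesion, migration and the uptake of complement-coated particles; CD11c, the product of Itgax, is a surface marker of mouse alveolar macrophages. The alpha v integrins bind ligands that carry the tripeptide RGD, among them vitronectin, osteopontin and the bridging protein Mfge8 on apoptotic cells, and several of them release latent TGF-beta.

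The 2 RNA samples differed in single chains and not across both families. Of the 9 measured genes 1 was higher (Itgb3), 2 were lower (Itgad and Itgal) and 6 met neither condition, when the brightest measured probe stood for its gene. Over all 15120 measured genes 14.3% were called, 8.37% as higher and 5.9% as lower. Counted by probe, 3 integrin probes were higher, 3 lower and 9 neither, against 13.2% of the 27797 measured probes called (6.87% higher and 6.3% lower). The median difference of the measured members was 0.22, against 0.06 over all measured genes. With scaling to the spike-in probes every difference was lower by 0.72, and the members' median was then -0.50 against -0.66 over all genes. With that scaling Itgb3 was again the 1 higher member and Itgad and Itgal the 2 lower ones, against 25.1% of all measured genes called (4.15% higher and 21% lower), although only 1 measured member remained above 0, against 7 with the 75th percentile, and the share of higher among all calls was 16.5% against 58.7%. Median centring moved the median of all genes to -0.04 and kept the members' median above 0, at 0.11.

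**Figure D1:**
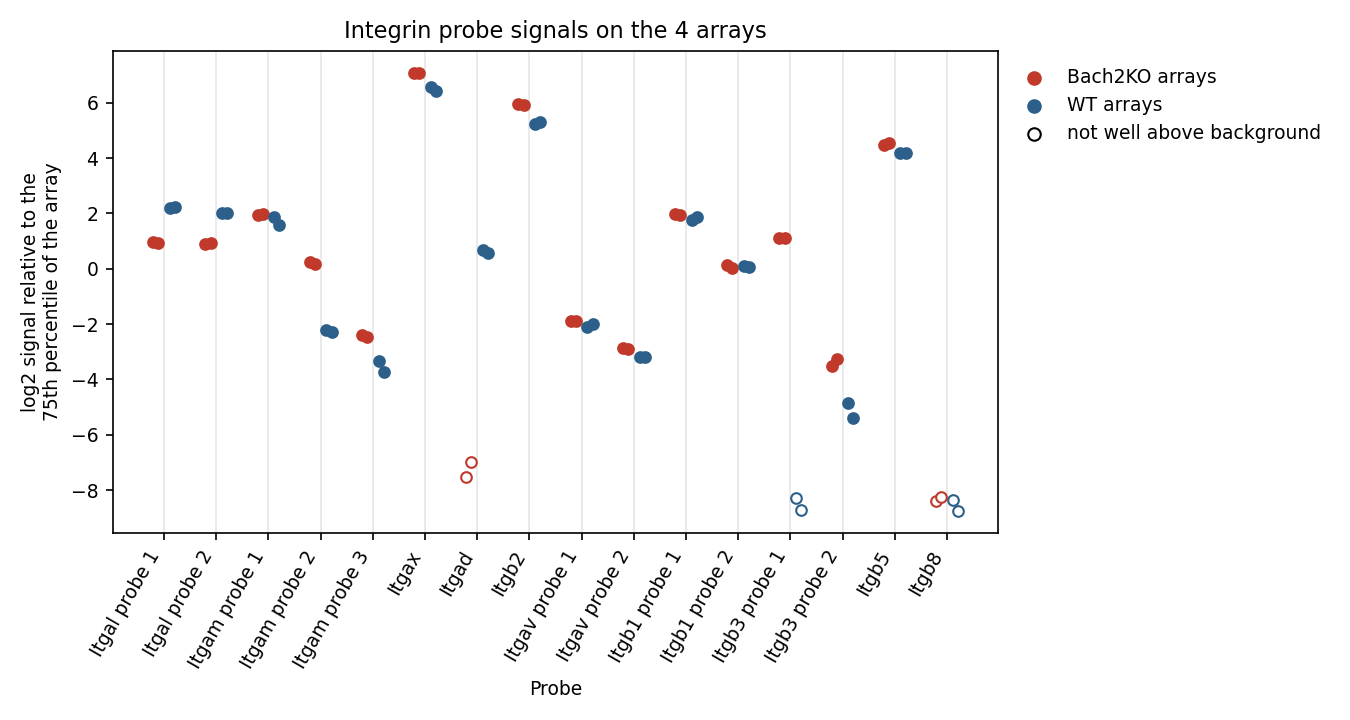
Log2 signal of each of the 16 integrin probes relative to the 75th percentile of its array, with the 2 Bach2KO arrays in red left of the 2 WT arrays in blue; open circles are not well above background. The Itgad signals of the Bach2KO arrays and the signals of Itgb3 probe 1 on the WT arrays lie at background, as do all 4 signals of Itgb8; heights are not comparable between probes.

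Among the alpha chains that pair with Itgb2, Itgad had the lowest difference. It encodes CD11d, a chain that binds vascular cell adhesion molecules and is found on macrophages of several tissues. Its only probe had log2 signals of -7.54 and -6.99 on the Bach2KO arrays, against 0.67 and 0.56 on the WT arrays. In processed intensity these were 5.58 and 7.72 units in Bach2KO, against 2016.7 and 2236.7 units in WT. The groups were far apart: the probe was well above background on both WT arrays and on neither Bach2KO array. Its difference therefore has only a bound, computed by raising each dim signal to the dimmest signal that counted as well above background on its array (means of normalised log2 values). On that basis Itgad fell at least 104-fold, and the measured means were -7.26 ± 0.39 in Bach2KO and 0.62 ± 0.08 in WT (SD, n = 2 arrays each).

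Itgal encodes CD11a, the alpha chain of LFA-1, which binds ICAM adhesion molecules. The brighter of its probes had signals of 0.97 and 0.92 on the Bach2KO arrays, against 2.19 and 2.23 on the WT arrays, and the other had 0.91 and 0.92, against 2.01 and 2.03. Both probes separated the genotypes by a similar amount. Itgal was 2.41-fold lower by the brighter probe, with array pairs from -1.31 to -1.22, and 2.15-fold lower by the other, with pairs from -1.12 to -1.09. Of the 14188 genes well above background on all 4 arrays, 4.11% had a lower difference than Itgal. The second probe was close to the threshold, and its call ended with normexp correction followed by quantile normalization (-1.04). Of 7 measured T cell markers 3 (Cd3d, Cd3g and Lck) were higher in the same Bach2KO RNA and none was lower, and with spike-in scaling Cd3d alone was called. Among all measured genes 8.37% were higher, or 4.15% with spike-in scaling. Cd3d and Cd3g were dim and not well above background on either WT array. Cd3e (0.17), Cd8a (0.45), Cd8b1 (0.94) and Cd4 by its brightest probe (0.30) met neither condition. The other Cd4 probe was called higher. The summed linear signal of the 7 was 9.16 and 9.05 on the Bach2KO arrays and 7.54 and 6.76 on the WT arrays, in units of the 75th percentile. Most of it came from Cd4 and Cd3e, which met neither condition by their brightest probes. Such sums, here and for the lists that follow, take the brightest probe of every listed gene on the array, measured or not. LFA-1 is also carried by T cells, whose part in the Itgal signal was not tested. The 3 genes with the profile nearest to Itgal over the 4 arrays were Dbndd2, Zfpm1 and Pram1, at root mean square distances of 0.008, 0.009 and 0.014 (log2).

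Itgam, which encodes CD11b, the alpha chain of complement receptor 3, gave different answers by probe. Probe 1, the brightest and named by accession NM_001082960, had signals of 1.94 and 1.97 on the Bach2KO arrays, against 1.89 and 1.59 on the WT arrays. Probe 2, with the same accession, had 0.26 and 0.18 in Bach2KO, against -2.20 and -2.28 in WT. Probe 3, named by NM_008401, had -2.40 and -2.48 in Bach2KO, against -3.34 and -3.74 in WT. All 3 probes were well above background on every array and on each the Bach2KO signals lay above the WT signals, by very different amounts. Probe 1 differed by 0.22 (pairs 0.06 to 0.38) and met neither condition, probe 2 was 5.51-fold higher (pairs 2.39 to 2.54), and probe 3 differed by 1.10 (pairs 0.85 to 1.34) and missed the threshold in 1 or more pairs. The differences of the 3 probes spanned 2.25 on the log2 scale, far more than the gaps between arrays of 1 RNA sample, so no single value describes Itgam. With spike-in scaling probe 1 turned to -0.50, probe 3 was 0.38 and probe 2 was still called (1.74). The positions of the probes on the transcripts were not used here.

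Some markers of other cells that carry CD11b were called, in both directions. Of 10 measured neutrophil markers 3 were higher (S100a8, S100a9 and Retnlg), 1 was lower (Mmp8) and 6 neither, with summed linear signals of 55.7 and 56 on the Bach2KO arrays and 45.8 and 44.5 on the WT arrays. The largest part of these sums came from Csf3r, which met neither condition (-0.34). Ngp was not well above background on any array. Of 11 measured monocyte and interstitial macrophage markers 5 were higher (C1qa, C1qb, C1qc and Lyve1 among them), 1 was lower (Ccr2) and 5 neither, with sums of 82.8 and 82.4 in Bach2KO and of 68.7 and 72 in WT, and Cd163 was not well above background on any array. Csf1r, which met neither condition (0.07), made up the largest part of the monocyte and interstitial macrophage sums. With spike-in scaling the neutrophil list again had 3 higher and 1 lower, and the monocyte and interstitial macrophage list 4 higher and 2 lower. Over all measured genes 8.37% were higher and 5.9% lower, or 4.15% and 21% with spike-in scaling. S100a9, Retnlg and Lyve1 were not well above background on either WT array. None of 3 measured dendritic cell, 3 eosinophil and 4 NK cell markers was called. The part of other cells in the Itgam signals was not tested.

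Itgax and Itgb2 met neither condition. For Itgax, the CD11c gene, the signals were 7.09 on either Bach2KO array, against 6.57 and 6.44 on the WT arrays. The difference was 0.59 (pairs 0.52 to 0.65), or -0.13 with spike-in scaling. For Itgb2, which encodes CD18, the common beta chain without which none of these alpha chains reaches the surface, the signals were 5.94 and 5.93 in Bach2KO, against 5.25 and 5.30 in WT. That difference was 0.66 (pairs 0.63 to 0.69), or -0.06 with spike-in scaling, and was called at a threshold of 1.5-fold. In all, 14.3% of the genes well above background on all 4 arrays had a larger difference than Itgb2 and 16.5% a larger one than Itgax. Among the RNAs of the beta 2 integrin chains, Itgb2 and Itgax thus stayed within 2-fold while Itgad and Itgal were lower. Itgam depended on the probe (0.22, 2.46 and 1.10).

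Itgam, Itgax and Itgad lie next to each other on mouse chromosome 7, with only predicted pseudogenes between them in the RefSeq table. The difference between the genotypes was 0.59 for Itgax and a fall of at least 104-fold for its neighbour Itgad. Promoter windows of 300 bases around an annotated start were at hand from RefSeq (GRCm38.p6) for 6 of the 10 members: Itgam, Itgax, Itgav, Itgb1, Itgb5 and Itgb8. For Itgax and Itgav that start lies inside the gene as the RefSeq gene table bounds it, and the Itgav window lies wholly inside. Those of the neighbours Itgam and Itgax are printed because these alpha chains share a partner and a locus. Both strands were searched for GAGGAA, the core bound by the myeloid factor PU.1, and for TGANTCA, the AP-1 core that also forms part of the Maf recognition elements bound by Bach2, and capitals mark the matches on either strand.
Itgam, chr7:128062390-128062689, plus strand: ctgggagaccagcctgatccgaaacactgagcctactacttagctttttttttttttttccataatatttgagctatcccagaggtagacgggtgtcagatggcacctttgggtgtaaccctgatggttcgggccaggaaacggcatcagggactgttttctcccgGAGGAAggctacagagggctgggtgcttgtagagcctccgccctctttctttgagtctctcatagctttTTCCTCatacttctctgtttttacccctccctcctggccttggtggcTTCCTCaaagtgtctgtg
Itgax, chr7:128129300-128129599, plus strand: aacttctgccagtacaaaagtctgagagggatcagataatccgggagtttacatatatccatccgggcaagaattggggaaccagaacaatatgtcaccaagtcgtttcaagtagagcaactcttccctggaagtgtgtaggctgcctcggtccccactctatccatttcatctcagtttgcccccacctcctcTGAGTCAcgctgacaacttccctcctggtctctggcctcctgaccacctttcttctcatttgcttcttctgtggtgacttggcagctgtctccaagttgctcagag
The Itgam window held 3 matches to GAGGAA or its reverse complement and none to TGANTCA. The Itgax window held 1 match to TGANTCA, beginning at base 195 of the window, and none to GAGGAA. Of all 32851 promoter windows in the table, 28.3% held a GAGGAA match and 7.81% a TGANTCA match. The longer Maf recognition element core, which contains TGANTCA, was found in 0.423% of the windows and in 0 of the 6 member windows. None of the called members (Itgb3, Itgad and Itgal) had a window, so their promoters were not searched. Among the other members GAGGAA was present in the windows of Itgav (2 matches) and Itgb1 (1 match). These are matches of letters and not evidence of binding.

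**Figure D2:**
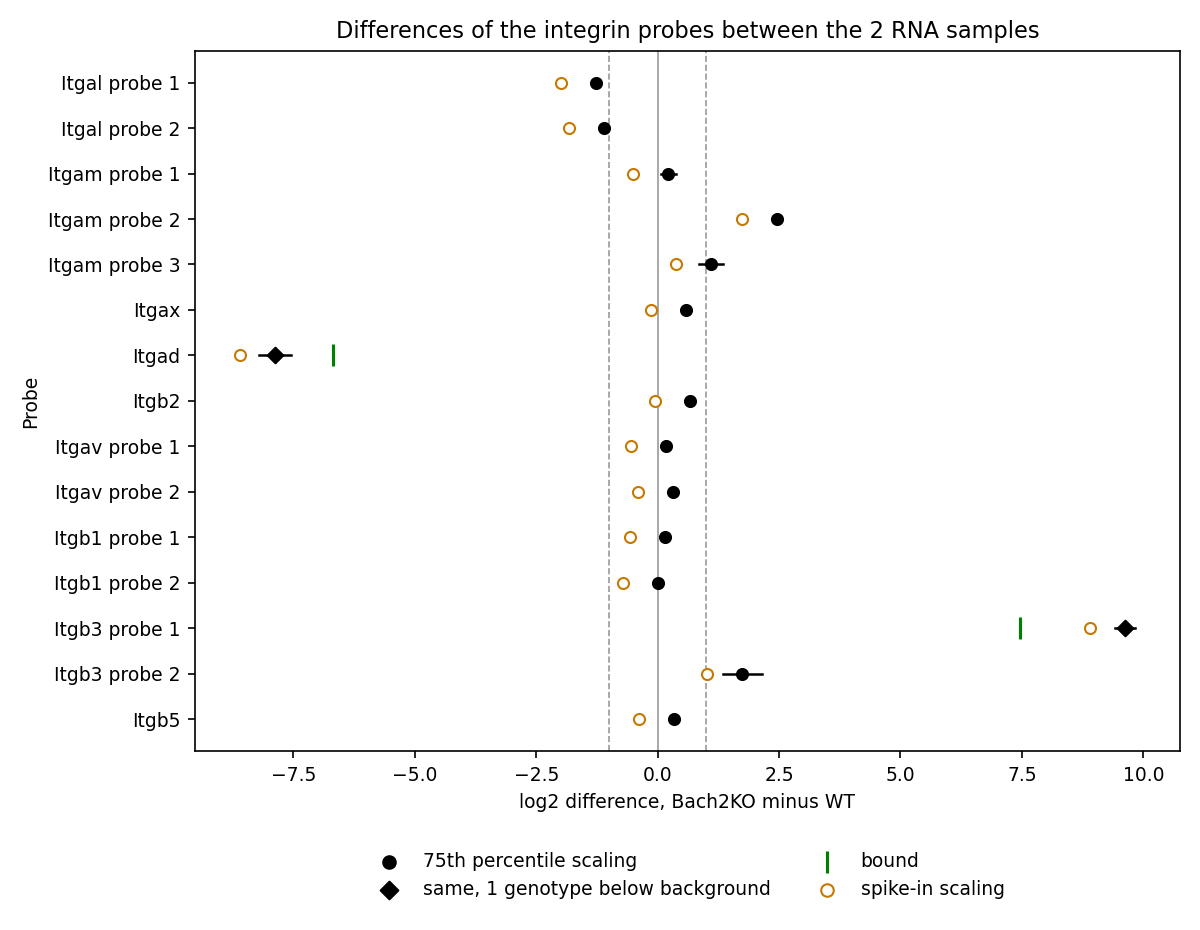
Log2 difference, Bach2KO minus WT, of the 15 measured integrin probes, as black points with lines over the lowest and highest of the 4 array pairs; diamonds mark probes below background in 1 genotype, green ticks their bounds, and open orange points the values with spike-in scaling. Dashed lines stand at 2-fold. Itgad and Itgb3 probe 1 lie beyond 2-fold even at their bounds, and most other probes lie between 0 and 0.66 with the 75th percentile and below 0 with spike-in scaling.

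Among the alpha v integrins, the alpha chain itself met neither condition. For Itgav the brighter probe had signals of -1.90 and -1.87 on the Bach2KO arrays, against -2.12 and -2.01 on the WT arrays. The other probe had -2.85 and -2.90 in Bach2KO, against -3.20 and -3.17 in WT. Its probes gave small differences of 0.18 (pairs 0.11 to 0.25) and 0.31 (pairs 0.27 to 0.35), and of -0.54 and -0.41 with spike-in scaling.

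Itgb3 encodes the beta 3 chain, which forms the vitronectin receptor of osteoclasts and some macrophages with alpha v and the fibrinogen receptor of platelets with the product of Itga2b. Probe 1 had log2 signals of 1.11 on either Bach2KO array, against -8.30 and -8.72 on the WT arrays. Its processed intensities were 2232.9 and 2115.8 units in Bach2KO, against 4.01 and 3.59 units in WT, both at background. By this probe Itgb3 was at least 176-fold higher in Bach2KO. Probe 2 was well above background on all 4 arrays, with -3.51 and -3.25 in Bach2KO, against -4.85 and -5.39 in WT. It was 3.34-fold higher, with pairs from 1.34 to 2.14, and was not called with spike-in scaling (1.02) or after either normexp correction (0.93 and 0.68). Both probes carry the accession NM_016780 and ran in the same direction, but their differences lay 7.88 apart, so the size of the Itgb3 difference depends on the probe.

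Markers of cells that typically express beta 3 were set beside Itgb3. Of 4 measured osteoclast markers 3 were higher (Dcstamp, Ctsk and Acp5), none was lower and 1, Ocstamp, met neither condition (0.10). Over all measured genes 8.37% were higher, or 4.15% with spike-in scaling. The summed linear signals were 432 and 431 on the Bach2KO arrays and 136 and 135 on the WT arrays. Nearly all of these sums came from Acp5 and Ctsk, which were bright in both genotypes. Dcstamp, needed for the fusion of macrophages and osteoclasts, was 16.9-fold higher, with only 1 of the 2 WT arrays well above background. The osteoclast protease gene Ctsk was 3.85-fold higher and the acid phosphatase gene Acp5 2.81-fold, a call of Acp5 that ended with spike-in scaling (0.77). Mmp9 was at background on all 4 arrays, and Calcr was well above background on 1 Bach2KO array only and not measured. Of 6 platelet markers Ppbp, Gp9 and Gp1ba were not well above background on any array, and neither was Itga2b. Pf4 was 2.24-fold higher, a call that ended with spike-in scaling (0.44), Gp5 differed by -0.85 and was called lower with spike-in scaling (-1.56), and Treml1 differed by 0.08. The summed platelet signal was 1.33 and 1.29 in Bach2KO and 0.625 and 0.666 in WT. Most of this sum came from Pf4 alone, with log2 signals of 0.31 and 0.26 in Bach2KO and -0.95 and -0.81 in WT. The part of other cells in the Itgb3 signal was not tested.

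The remaining beta chains that pair with alpha v met neither condition or were not measured. Itgb5, whose product forms a vitronectin receptor with alpha v, had signals of 4.49 and 4.54 on the Bach2KO arrays, against 4.19 and 4.18 on the WT arrays. Its difference was 0.33 (pairs 0.30 to 0.36), or -0.39 with spike-in scaling. Itgb1, the beta chain shared with many other alpha chains, had signals of 1.98 and 1.96 in Bach2KO, against 1.77 and 1.86 in WT, by its brighter probe, and of 0.12 and 0.02, against 0.09 and 0.05, by the other. The Itgb1 differences were 0.16 and 0.00, and the groups overlapped for the second probe. With spike-in scaling they were -0.56 and -0.72. Itgb8, whose product with alpha v releases latent TGF-beta, was at background everywhere, with -8.39 and -8.24 in Bach2KO, against -8.36 and -8.75 in WT, so no fold is given. An Itgb8 difference was not detectable with this probe.

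The other integrin chains were examined as a comparison, and 14 of 16 had a named probe and 10 were measured. Of these 2 were higher, 1 was lower and 7 met neither condition, with a median difference of 0.35 that became -0.37 with spike-in scaling. Itga6, the alpha chain of laminin receptors, had signals of 0.17 and 0.20 on the Bach2KO arrays, against 2.30 on either WT array, a 4.33-fold lower signal. Itgb7, the beta chain of gut-homing receptors, was 2.39-fold higher, with -2.06 on either Bach2KO array, against -3.19 and -3.44 on the WT arrays. Itga9, which pairs with Itgb1 and was at background in WT, was at least 2.49-fold higher. Neither Itgb7 (0.54) nor Itga9 (1.37) was called with spike-in scaling, and with normexp correction none of these chains was higher. Itga4 differed by -0.82 and was called lower with spike-in scaling (-1.53), which gave 2 lower chains. Over all measured genes 8.37% were higher and 5.9% lower, or 4.15% and 21% with spike-in scaling.

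Of 9 measured ligands of the alpha v integrins 4 were higher, none was lower and 5 met neither condition, with a median of 0.28, or -0.44 with spike-in scaling, under which 3 stayed higher. Among all measured genes 8.37% were higher, or 4.15% with that scaling. Spp1, which encodes the bone matrix protein and cytokine osteopontin, had signals of 6.49 and 6.35 in Bach2KO, against 2.67 and 2.83 in WT, a 12.8-fold higher signal. Mfge8, the bridge between apoptotic cells and alpha v integrins, had 8.69 and 8.73 in Bach2KO, against 2.36 and 2.40 in WT (80.8-fold). Thbs1, the gene of the matrix protein thrombospondin 1, was at least 21.6-fold higher. Lrrc32, which encodes a surface anchor of latent TGF-beta, was 2.56-fold higher, and not called with spike-in scaling (0.64). Fibronectin (Fn1), with signals of 6.08 and 6.03 in Bach2KO against 5.83 and 5.72 in WT, and Tgfb1, which differed by 0.04, met neither condition, and vitronectin (Vtn) was not well above background on any array.

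Ligands of the beta 2 integrins went both ways, with 3 of 9 measured genes higher, 1 lower and 5 neither. Their median was 0.66, or -0.06 with spike-in scaling. The shares over all measured genes were 8.37% higher and 5.9% lower. Vcam1, a ligand of CD11d, was 7.67-fold higher by its measured probe, with -3.00 and -2.97 on the Bach2KO arrays, against -6.04 and -5.81 on the WT arrays, of which only 1 was well above background. Thy1 was 6.38-fold higher. For both of its probes C3, the source of the complement fragment bound by CD11b and CD11c integrins, was called, and it was 2.53-fold higher by the brighter one, a call that was lost with spike-in scaling (0.62). F11r, which encodes the junctional adhesion molecule bound by LFA-1, was 2.16-fold lower. Icam1, the main ligand of LFA-1, differed by 0.21 and met neither condition.

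Proteins that switch integrins to the active state had a median difference of -0.16, with 3 of 16 measured genes higher, 1 lower and 12 neither. With spike-in scaling the median was -0.88 and 3 genes were higher and 3 lower, and quantile normalization gave 2 lower. All measured genes had shares of 8.37% higher and 5.9% lower, or 4.15% and 21% with spike-in scaling. Rasgrp2, an exchange factor for Rap1, was 6.43-fold higher, with 0.01 and 0.12 in Bach2KO, against -2.58 and -2.66 in WT. The adaptor gene Fyb was 8.64-fold higher. Its partner Skap1, at background in WT, was at least 3.52-fold higher. These are adaptors best known from T cells, of whose markers 3 of 7 were also higher (1 with spike-in scaling), and the part of such cells was not tested. Rassf5, the Rap1 effector that acts on LFA-1, was 3.37-fold lower, with 2.64 and 2.61 in Bach2KO, against 4.37 and 4.39 in WT. The talin gene Tln1 differed by -0.15 and the leukocyte kindlin gene Fermt3 by -0.42.

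Of 26 measured genes of adhesion signalling 2 were higher, 2 lower and 22 neither. Their median difference was -0.02, or 0.02 in the deposited table and -0.73 with spike-in scaling. Ptk2, which encodes focal adhesion kinase, had signals of -1.26 and -1.32 on the Bach2KO arrays, against -6.56 and -6.23 on the WT arrays, a 34.3-fold higher signal, although only 1 of the 2 WT arrays had it well above background. Vcl, the gene of the actin linker vinculin, was 6.12-fold higher by its brighter probe, and its other probe was called as well. Zyx, the gene of the adhesion protein zyxin, was 2.32-fold lower. With spike-in scaling both higher genes were still called and 7 genes were lower. The 5 lists held 10, 9, 9, 16 and 26 measured genes. Together 14 of these genes were higher and 5 lower, and with spike-in scaling 10 were higher and 14 lower. Over all measured genes 14.3% were called (8.37% higher and 5.9% lower), and with spike-in scaling 25.1% (4.15% higher and 21% lower).

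**Figure D3:**
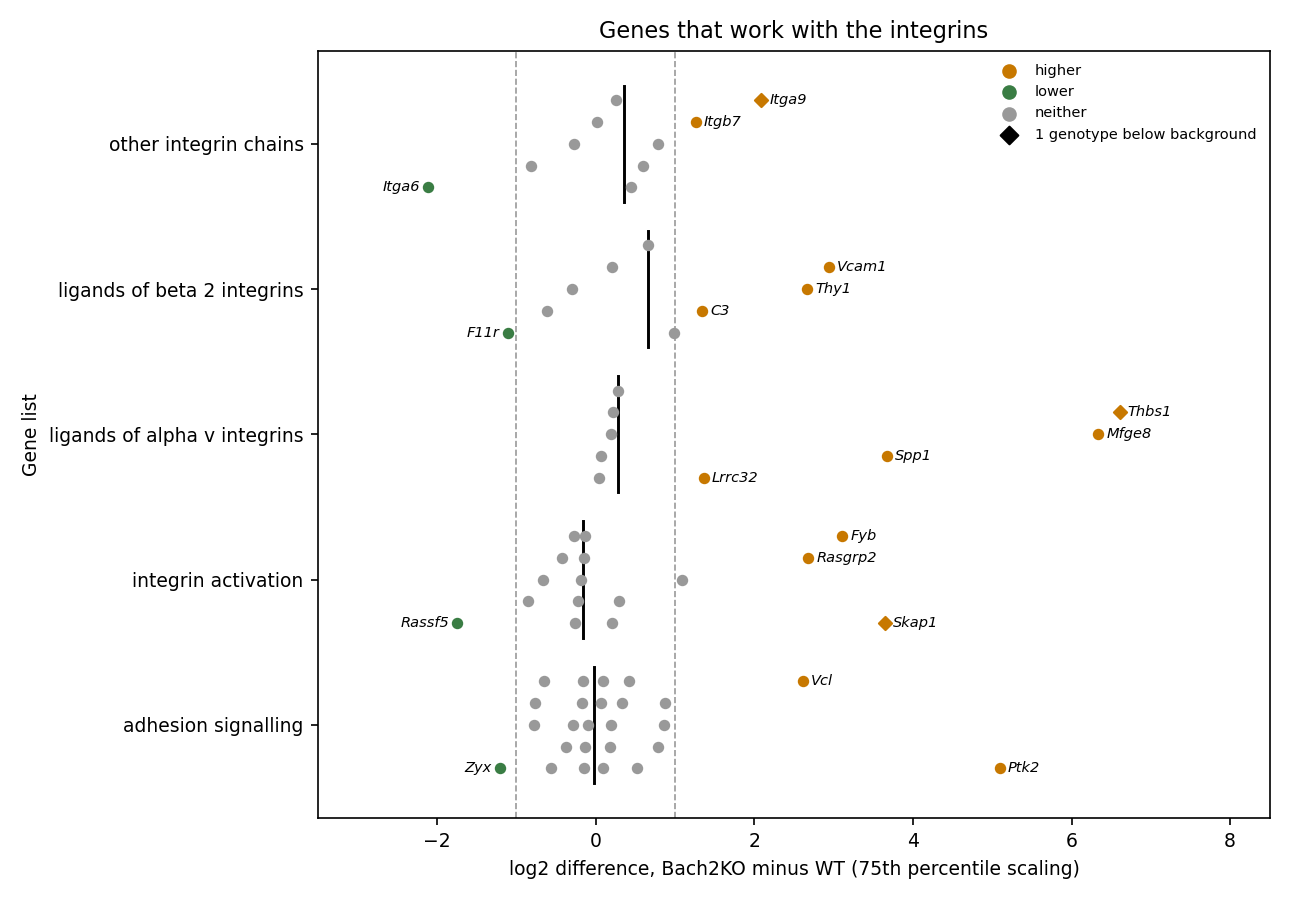
Log2 difference, Bach2KO minus WT, with 75th percentile scaling, for the measured genes of 5 lists of other integrin chains, ligands, activators and signalling proteins. Each point is a gene, vertical bars are list medians, dashed lines stand at 2-fold, diamonds mark genes below background in 1 genotype, called genes are named, and 1 lower gene of adhesion signalling is not drawn; Mfge8, Thbs1, Ptk2 and Spp1 lie farthest to the right.

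All 12 alveolar macrophage markers examined were well above background on all 4 arrays. Of these 2 were higher, 4 lower and 6 neither, and with spike-in scaling none was higher and 5 were lower. Krt79 was 16.8-fold lower, Siglecf 12.6-fold, Marco 3.61-fold and Ear2 3.06-fold. Fabp4 was 3-fold and Fabp5 2.93-fold higher, calls that ended with spike-in scaling (0.87 and 0.83). Pparg differed by -0.10. Over all measured genes 8.37% were higher and 5.9% lower. The only Bach2 probe was well above background on 1 of 2 arrays of either genotype and gave no check of the genotype labels. Each array had 27127 to 27918 of its 39429 probes well above background. Over genes, differences had an SD of 1.16 between the genotypes, of 0.21 between both Bach2KO arrays and of 0.26 between both WT arrays, where the array pairs measure the precision of labelling and hybridisation only.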

How the data were processed

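Per the file headers, the authors' scanner files hold linear intensity values per spot from Agilent Feature Extraction 10.7.3.1, with mm9 as the build of the array design. Version 9.1 is named in the submitters' processing notes. The processed intensity is background-subtracted and not normalized between arrays. The deposited value table holds log2 values, which equalled the log2 processed signal of the same array minus a constant (the SD of the difference was at most 3.5e-07 over 39030 probes with 1 spot), so higher values mean brighter probes.

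Control spots and outlier spots were left out, spots of a probe averaged on the log2 scale, and the array's 75th percentile over the spots of non-control probes subtracted (1035.8 and 978.9 on the Bach2KO arrays, 1266.9 and 1513.4 on the WT arrays). No spot was saturated. A probe was well above background where no fewer than 50% of its spots were. Symbols came through unversioned accessions from a RefSeq table (GRCm38.p6), with 26049 probes matched and 13380 not. The calling rule was checked on simulated data. Named genes were all members, up to 4 called genes per list, the markers given beside a result, and the nearest profiles of called members measured on all 4 arrays, which left Itgal alone. Fn1, Tgfb1, Vtn, Icam1, Tln1, Fermt3 and Itga2b were added for their roles after their values were seen, and Itga4 for its call with spike-in scaling. The members and lists were chosen with earlier results of these data known. Alternatives were other scalings, normexp (limma 3.58.1, R 4.3.3, offset 50, on median spot signals), the deposited table, filters, thresholds, probe averaging and leaving out each array. Python 3.11.15 and pandas 2.3.3 were used. Some called genes of the lists are not reported here by name.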

Additional observations from a re-analysis of the deposited data

How the results depend on the processing

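The counts of 1 higher and 2 lower members held under every scaling, both background corrections and the deposited table. Exceptions came from filters and thresholds. Requiring all 4 arrays above background left 1 lower member, since Itgad drops out. Itgb3 probe 1 drops out as well, and Itgb3 was then called higher by probe 2 alone (1.74). A threshold of 3-fold also left 1 lower member, and a threshold of 1.5-fold, or the mean of a gene's probes, gave 2 higher members. At 1.5-fold the added gene was Itgb2, and Itgam probe 3 (1.10) was called as well, and with averaged probes it was Itgam (1.26). Leaving out each array in turn gave 1 higher and 2 lower members each time, 14 to 16 higher and 5 lower genes of the 5 lists, and 1328 to 1490 higher and 968 to 1035 lower genes in all. Itgam probe 3 was called also without WT replicate 1 (1.30) and on array means.

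Spike-in scaling gave 14 lower genes of the 5 lists in place of 5, and 627 higher and 3175 lower genes in all in place of 1266 and 892. The filter on all 4 arrays left 9 higher list genes in place of 14. A threshold of 1.5-fold gave 9 lower list genes, 2236 higher and 1933 lower genes in all, and 3-fold gave 2, 695 and 409. No paired analysis was possible because the results come from no test, the arrays of a genotype being parts of 1 RNA sample. Probes near background, such as Itgb8 and Itgb3 in WT, limit what the arrays can show. Percentiles taken over averaged probes were an alternative chosen after seeing the data, and it changed no member call.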

Other observations

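Marker lists of other cell types also held called genes. Of 7 measured T cell markers 3 were higher (Cd3d, Cd3g and Lck) and none lower, and of 5 measured endothelial markers 2 were higher (Cdh5 and Vwf). The epithelial markers gave 2 higher (Sftpb and Scgb1a1) and 1 lower of 6, the lower being Epcam, an adhesion gene, which fell at least 98.1-fold and was, like Itgad, not well above background on either Bach2KO array. Of 4 measured B cell markers 1 was higher (Cd79b), as was 1 of 4 fibroblast markers (Pdgfra) and 1 of 3 platelet markers (Pf4). Cd3d, Cd3g, Sftpb, Cd79b and Pdgfra were not well above background on either WT array and counted as measured through Bach2KO only. Over all measured genes 8.37% were higher, or 4.15% with spike-in scaling. None of 3 measured dendritic cell, 3 eosinophil and 4 NK cell markers was called. With spike-in scaling fewer were higher: 1 T cell marker, 1 endothelial marker, 1 fibroblast marker and none of the epithelial, B cell and platelet markers, while 1 epithelial and 1 platelet marker were lower.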
